A study of Rattus norvegicus with 9 samples.

Results

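Genes of mitosis and cytokinesis were followed in cultured heart muscle cells of newborn rats under a pair of stimuli of hypertrophic growth. They were chosen by symbol: 41 genes of G2/M control, the kinetochore, the spindle and cytokinesis were listed. The list was made with earlier results of these data known, so counts of its genes describe this choice and are not a test of it. Of the 41 genes, 39 had a row among the 17327 rows of the read count table. All 39 passed the filter on low counts and were tested among 11873 genes. The levels of Spc24 and Anln were not analysed here, and only their promoters were read. The samples were primary cardiomyocytes from the ventricles of neonatal rats (NRVMs), 3 samples in each group. They were kept for 48 hours with 10 nM IGF1 or with 50 µM phenylephrine, or were kept with vehicle, for a time not recorded for those samples. IGF1 is an insulin-like growth factor and phenylephrine an agonist of alpha-adrenergic receptors. The labels name no strain, no transgene and no sorting step, so that other cells of the ventricle may be in the dishes. Whether the 3 samples came from separate cultures is not stated, so each p-value rests on a spread between samples that may be only technical.

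Mitosis runs on cyclin-dependent kinase 1, which is active when bound to cyclin A or cyclin B. Polo and Aurora kinases then build the spindle, the spindle checkpoint holds the cell until each chromosome is attached, and the anaphase-promoting complex (APC/C) destroys cyclin B to end the division. Many genes of these steps are transcribed together in G2 by the MuvB complex with MYBL2 and by FOXM1. Rat cardiomyocytes leave the cell cycle soon after birth, often with a last division of the nucleus without division of the cell, whereas fibroblasts and other cells of the heart go on dividing in culture.

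Total counts ran from 31274396 to 48505265 reads per sample. Levels are given as CPM, each gene's share of the TMM-scaled library on the usual per-1000000 scale, and 1 CPM rested on 29.1 to 51.6 reads. The lowest count of any of the 39 genes in a sample was 95 reads. Markers of cardiomyocytes were high in all samples: Tnnt2, cardiac troponin T, averaged 10990 CPM with IGF1, 9229 CPM with phenylephrine and 7617 CPM with vehicle. IGF1 replicate 1 stood apart from the other IGF1 samples, with 206 and 230 genes that differed over 1.5-fold from them, against 2 to 24 genes for every other pair of samples of a group. None of the 39 mitosis genes differed over 1.5-fold in any pair of samples of a group.

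All 39 mitosis genes were higher with IGF1 than with vehicle, and 36 were lower with phenylephrine than with vehicle. With IGF1 the median log2 fold change was 1.28, or 2.42-fold, with a range of 0.82 to 1.93. With phenylephrine the median was -0.53, or 1.44-fold lower, with a range of -0.85 to -0.06. The medians over all genes tested were -0.00 and -0.03. A gene was called when its edgeR quasi-likelihood p, adjusted over all genes tested, was under 0.05. Of all genes tested, 24.7% were called higher with IGF1 and 28.9% were called lower with phenylephrine. In whole cultures, more cells in mitosis and more mitotic RNA in each cell cannot be told apart.

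The 39 genes together held 2924, 3340 and 3166 CPM with IGF1, 831, 834 and 889 CPM with phenylephrine, and 1135, 1258 and 1338 CPM with vehicle. The groups did not overlap in this sum: every IGF1 sample lay above every vehicle sample, and every phenylephrine sample below. The mean sum was 2.53-fold higher with IGF1 than with vehicle, and 1.46-fold higher with vehicle than with phenylephrine.

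**Figure D1:**
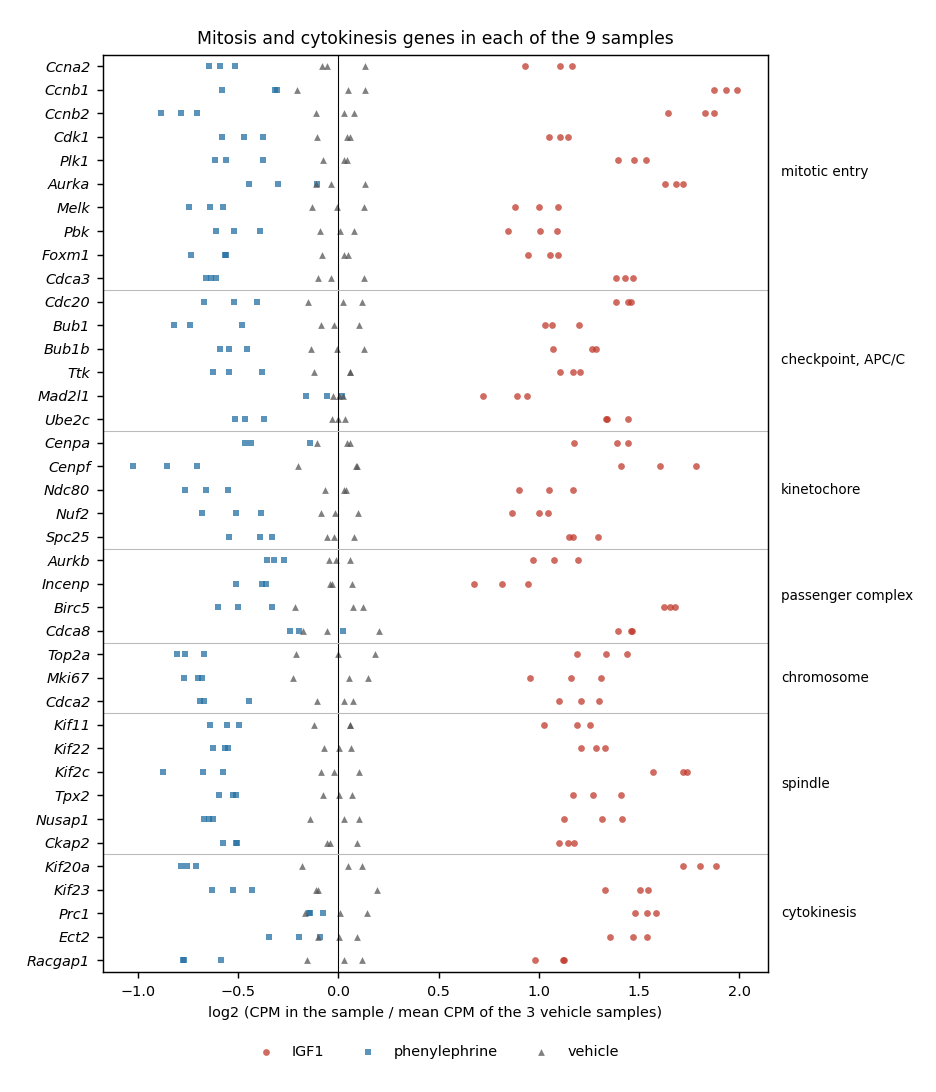
Level of each of the 39 mitosis and cytokinesis genes in each sample, as log2 of its CPM over the mean of the 3 vehicle samples, with genes grouped by role. Circles are IGF1, squares phenylephrine and triangles vehicle samples. Every IGF1 sample lies to the right of every vehicle sample for all 39 genes, and phenylephrine samples lie to the left without overlap for 34.

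Gene by gene, all 3 IGF1 samples lay above all 3 vehicle samples for 39 of 39 genes, where 28.8% of all genes tested showed this. All 3 phenylephrine samples lay below all 3 vehicle samples for 34 genes, against 34% of all genes tested. The overlaps were those of Aurka, Mad2l1, Cdca8, Prc1 and Ect2. Within groups, IGF1 replicate 1 was the lowest IGF1 sample for 36 of the 39 genes. Vehicle replicate 1 was the lowest vehicle sample for 35, and vehicle replicate 3 the highest for 31. The share of all genes tested with the same order was not counted. These within-group shifts were small, with a median log2 deviation from the group mean of -0.10 in IGF1 replicate 1, -0.10 in vehicle replicate 1 and 0.09 in vehicle replicate 3.

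Since these genes moved together, their promoters were read for motifs known from G2/M genes: CCAAT, the box bound by NF-Y, and TTTGAA, the CHR element to which MuvB complexes bind. RefSeq promoter sequences of the GRCr8 build, from 250 bases before to 50 bases after the annotated start, matched 32 of the 41 listed genes. Of these, 4 are shown, 5′ to 3′ along the gene, with both motifs in capitals on either strand (ATTGG and TTCAAA are the same motifs on the other strand). Ccnb1 had the largest rise with IGF1, Cdk1 encodes its partner kinase, Cdc20 has a TTTGAA between a pair of CCAAT boxes, and Prc1 rose with IGF1 but did not pass the test with phenylephrine. The windows are chr2:33655176-33655475 (minus strand), chr20:19265043-19265342 (plus strand), chr5:137255750-137256049 (minus strand) and chr1:143659231-143659530 (plus strand).
Ccnb1: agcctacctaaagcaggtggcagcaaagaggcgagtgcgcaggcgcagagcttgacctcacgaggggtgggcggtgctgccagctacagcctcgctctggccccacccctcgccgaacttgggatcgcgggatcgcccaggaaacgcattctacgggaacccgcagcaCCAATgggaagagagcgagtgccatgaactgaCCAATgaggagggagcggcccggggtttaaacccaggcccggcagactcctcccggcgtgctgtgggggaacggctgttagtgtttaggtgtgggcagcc
Cdk1: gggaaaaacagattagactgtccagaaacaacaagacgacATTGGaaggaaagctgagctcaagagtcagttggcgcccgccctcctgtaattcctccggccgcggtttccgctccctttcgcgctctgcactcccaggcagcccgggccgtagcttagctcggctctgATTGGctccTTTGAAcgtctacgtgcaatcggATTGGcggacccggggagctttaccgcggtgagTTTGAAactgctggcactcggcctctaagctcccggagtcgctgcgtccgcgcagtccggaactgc
Cdc20: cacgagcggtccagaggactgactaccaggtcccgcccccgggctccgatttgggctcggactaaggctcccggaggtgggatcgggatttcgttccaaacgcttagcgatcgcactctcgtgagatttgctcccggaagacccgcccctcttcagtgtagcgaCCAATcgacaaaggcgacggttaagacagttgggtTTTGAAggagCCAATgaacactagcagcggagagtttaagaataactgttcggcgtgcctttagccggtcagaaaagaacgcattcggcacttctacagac
Prc1: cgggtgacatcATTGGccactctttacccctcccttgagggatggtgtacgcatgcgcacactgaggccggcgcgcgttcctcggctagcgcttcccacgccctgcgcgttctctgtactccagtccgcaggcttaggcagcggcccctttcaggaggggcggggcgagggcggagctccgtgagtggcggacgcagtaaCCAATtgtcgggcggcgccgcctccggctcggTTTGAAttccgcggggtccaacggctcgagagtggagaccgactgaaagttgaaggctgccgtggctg

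In the Ccnb1 window, CCAAT starts at 82 and at 50 bases before the gene start, and TTTGAA is not among its letters. In the Cdk1 window the reverse form of CCAAT starts at 210, 81 and 49 bases before the start, and TTTGAA at 72 and 16 bases before it. In the Cdc20 window TTTGAA starts at 51 bases before the start, between CCAAT at 86 and at 41 bases before it. In the Prc1 window CCAAT starts at 50 and TTTGAA at 18 bases before the start, and the reverse form of CCAAT at 239 bases before it. No motif overlaps another in these 4 windows.

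Among the 32 promoters, 23 held CCAAT on either strand (71.9%), 23 held TTTGAA (71.9%) and 18 held both (56.2%). Of all 33469 promoters of the RefSeq table, 37.5% held CCAAT, 18.3% TTTGAA and 7.41% both. Of the 8976 promoters matched to genes tested, 37.2% held CCAAT, 11.2% TTTGAA and 4.48% both. Other genes of mitosis, with 47 promoters, held CCAAT in 57.4%, TTTGAA in 53.2% and both in 36.2%. Genes of S phase, with 35 promoters, held CCAAT in 57.1% and TTTGAA in 11.4%. A match of letters is not a measured binding site. Aurka, Melk, Bub1 and Kif2c held neither motif in this window, and their log2 fold changes with IGF1 were 0.997 to 1.68, within the 0.86 to 1.93 of the other tested genes that had a sequence. Median log2 fold changes were 1.39 with IGF1 and -0.52 with phenylephrine for the 18 genes with both motifs, and 1.39 and -0.66 for the 4 with neither. Ccnb1, Cdca3, Kif11 and Kif20a, with CCAAT only, had medians of 1.62 (1.16 to 1.93) and -0.60. Bub1b, Mad2l1, Ndc80 and Nuf2, with TTTGAA only, had medians of 1.01 (0.86 to 1.21) and -0.53. Differences between these classes were not tested.

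**Figure D2:**
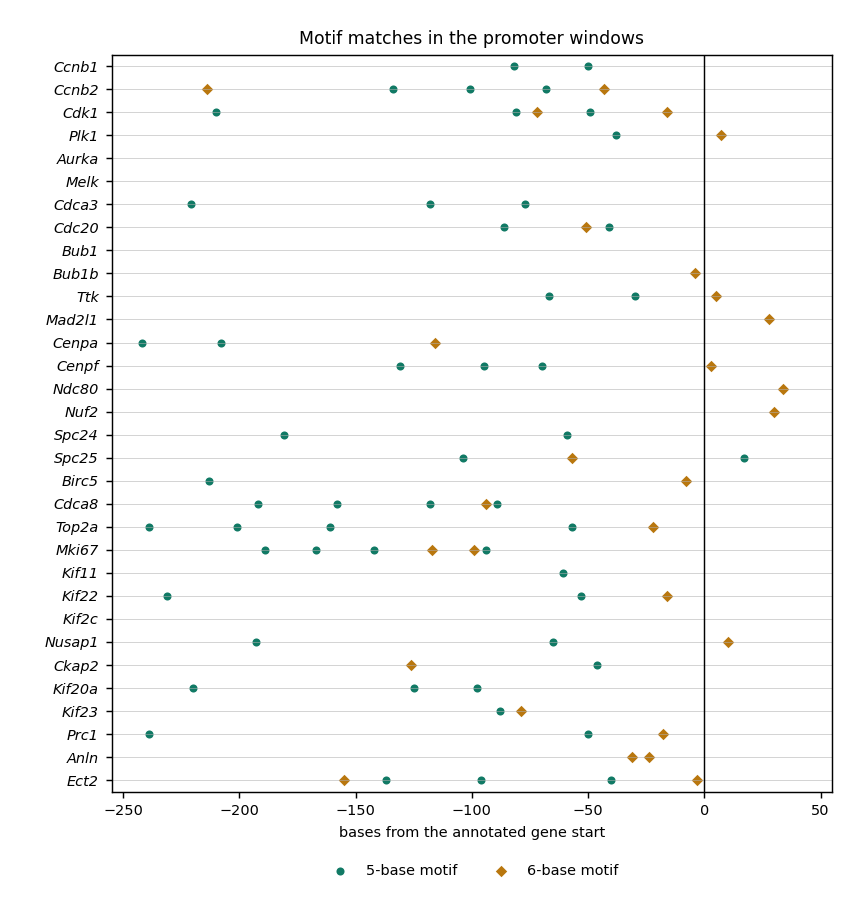
Start of each match of the 5-base motif (CCAAT, circles) and the 6-base motif (TTTGAA, diamonds) in the promoter windows of 32 of the listed genes, in bases from the annotated gene start. Of the matches to the 6-base motif, 10 start within the 50 bases before the start, and the 5-base motif is most frequent from 100 to 51 bases before it, with 18 matches.

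The 10 genes of mitotic entry were all higher with IGF1, with a median log2 fold change of 1.26, and all lower with phenylephrine, with a median of -0.55. Ccnb1, the gene of cyclin B1, had 114, 123 and 118 CPM with IGF1, 25.0, 20.8 and 24.9 CPM with phenylephrine, and 26.9, 32.0 and 34.0 CPM with vehicle. Each phenylephrine sample was below each vehicle sample, and the IGF1 samples stood far above both groups. Against vehicle this was 3.82-fold with IGF1 (log2 1.93, SE 0.09, edgeR adjusted p = 6.5e-09) and 1.31-fold lower with phenylephrine (log2 -0.40, SE 0.09, adjusted p = 0.0028). Its partner kinase Cdk1 had 87.8, 93.7 and 91.0 CPM with IGF1, 30.6, 28.4 and 32.7 CPM with phenylephrine, and 39.3, 43.7 and 44.0 CPM with vehicle. The groups did not overlap, and the log2 fold changes were 1.10 with IGF1 (SE 0.06, edgeR adjusted p = 1.6e-09) and -0.47 with phenylephrine (SE 0.06, adjusted p = 1.1e-05).

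The other B-type cyclin gene, Ccnb2, had 60.7, 71.2 and 69.0 CPM with IGF1, 11.3, 10.5 and 11.9 CPM with phenylephrine, and 17.9, 20.5 and 19.8 CPM with vehicle, without overlap. It rose 3.46-fold with IGF1 and was 1.73-fold lower with phenylephrine, the lowest value among the genes of entry. Ccna2, the gene of cyclin A2, which acts from S phase into early mitosis, rose 2.10-fold with IGF1, less than Ccnb1 and Ccnb2. Its log2 fold change with phenylephrine was -0.58, between those of Ccnb1 (-0.40) and Ccnb2 (-0.79). Aurka, the kinase of the spindle poles, rose 3.19-fold, and Plk1, the polo kinase, 2.77-fold with IGF1. Cdca3, a part of the ligase that removes the Cdk1 inhibitor WEE1, rose 2.69-fold. Foxm1, the transcription factor of G2/M genes, rose 2.05-fold with IGF1 and was 1.53-fold lower with phenylephrine. The mitotic kinases Melk and Pbk rose 2.00-fold and 1.98-fold with IGF1. With phenylephrine Aurka was 1.21-fold lower (edgeR adjusted p = 0.016), and that call ended without vehicle replicate 3 (log2 -0.21, adjusted p = 0.071), phenylephrine replicate 1 (-0.20, 0.087) or phenylephrine replicate 2 (-0.26, 0.053).

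The spindle checkpoint and the APC/C were represented by 6 genes, all higher with IGF1 (median log2 1.19), and 5 of them lower with phenylephrine (median -0.52). Cdc20, the activator of the APC/C, had 94.8, 99.9 and 98.85 CPM with IGF1, 22.8, 25.3 and 27.4 CPM with phenylephrine, and 32.7, 39.4 and 36.9 CPM with vehicle. The order of the groups was the same as for Ccnb1, without overlap. Cdc20 was 2.70-fold higher with IGF1 (log2 1.43, SE 0.07, edgeR adjusted p = 9.2e-10) and 1.44-fold lower with phenylephrine (log2 -0.53, SE 0.07, adjusted p = 2.5e-05). Ube2c, the ubiquitin-conjugating enzyme of the APC/C, rose 2.59-fold with IGF1. The checkpoint kinases Bub1 and Ttk rose 2.15-fold and 2.24-fold, and Bub1b, which blocks Cdc20, 2.31-fold. Mad2l1, the checkpoint protein that binds Cdc20, had 14.97, 16.95 and 16.1 CPM with phenylephrine and 16.8, 17.0 and 16.5 CPM with vehicle, and so did not pass the test (log2 -0.06, SE 0.07, edgeR adjusted p = 0.49). With IGF1 it rose 1.81-fold.

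Of the genes of the centromere and kinetochore, the plate that ties chromosomes to microtubules, 5 were tested, and all 5 were higher with IGF1 (median log2 1.21) and lower with phenylephrine (median -0.52). Cenpf, a large protein of the outer kinetochore, had 158, 205 and 181 CPM with IGF1, 29.3, 32.9 and 36.5 CPM with phenylephrine, and 51.8, 63.6 and 63.4 CPM with vehicle. Its fall with phenylephrine was the largest among the 39 genes, at 1.81-fold (log2 -0.85, SE 0.13, edgeR adjusted p = 0.00062), and its rise with IGF1 was 3.05-fold (log2 1.61, SE 0.12, adjusted p = 1.5e-05). Ndc80, Nuf2 and Spc25, which belong to the microtubule-binding Ndc80 complex, rose 2.07-fold, 1.96-fold and 2.31-fold with IGF1. They were 1.57-fold, 1.43-fold and 1.34-fold lower with phenylephrine. Cenpa, the histone H3 variant that marks centromeres, had the fewest reads of the 39 genes. It rose 2.54-fold with IGF1 and was 1.27-fold lower with phenylephrine (log2 -0.34, edgeR adjusted p = 0.041). That fall did not pass without vehicle replicate 1 (log2 -0.33, adjusted p = 0.086), vehicle replicate 2 (-0.32, 0.091), phenylephrine replicate 2 (-0.28, 0.13) or phenylephrine replicate 3 (-0.29, 0.12).

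The chromosomal passenger complex corrects attachments and later directs the cleavage furrow. Its 4 genes were all higher with IGF1 (median log2 1.26), and 3 were lower with phenylephrine (median -0.37). Aurkb, its kinase, had 38.4, 44.8 and 41.2 CPM with IGF1, 16.2, 15.7 and 15.3 CPM with phenylephrine, and 18.9, 19.4 and 20.3 CPM with vehicle. Birc5, survivin, had 28.5, 29.1 and 28.0 CPM with IGF1, 6.42, 5.98 and 7.21 CPM with phenylephrine, and 7.82, 9.87 and 9.54 CPM with vehicle. Incenp, the scaffold of the complex, had 43.6, 52.7 and 48.1 CPM with IGF1, 21.3, 21.0 and 19.2 CPM with phenylephrine, and 26.6, 26.8 and 28.65 CPM with vehicle. None of the 3 genes overlapped between groups, yet their rises with IGF1 were unequal. Birc5 rose 3.15-fold (log2 1.65, SE 0.09, edgeR adjusted p = 3.0e-09) and Aurkb 2.12-fold (1.09, SE 0.07, 7.6e-09). Incenp rose 1.76-fold, the smallest rise among the 39 genes (0.82, SE 0.07, 2.5e-07). Cdca8, borealin, rose 2.71-fold with IGF1, and its 10.5, 10.9 and 12.6 CPM with phenylephrine overlapped its 11, 11.97 and 14.3 CPM with vehicle (log2 -0.13, SE 0.10, edgeR adjusted p = 0.27).

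On mitotic chromosomes act topoisomerase II alpha, which untangles sister DNA, and Ki-67, a coat of the chromosomes and the usual marker of cycling cells. Top2a had 273, 325 and 301 CPM with IGF1, 70.4, 68.4 and 75.1 CPM with phenylephrine, and 103, 120 and 136 CPM with vehicle. Mki67 had 235, 301 and 272 CPM with IGF1, 74.8, 71.2 and 75.9 CPM with phenylephrine, and 104, 126 and 134 CPM with vehicle. Both were highest in IGF1 replicate 2 and lowest among vehicle samples in replicate 1, and neither overlapped between groups. Mki67 was 2.22-fold higher with IGF1 (log2 1.15, SE 0.11, edgeR adjusted p = 5.1e-05) and 1.64-fold lower with phenylephrine (log2 -0.71, SE 0.11, adjusted p = 0.00075). Top2a was 2.50-fold higher with IGF1 and 1.68-fold lower with phenylephrine. Cdca2, which brings a phosphatase to chromatin at mitotic exit, was 2.31-fold higher and 1.51-fold lower.

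All 6 genes of spindle motors and microtubule proteins rose with IGF1 (median log2 1.28) and fell with phenylephrine, within -0.70 to -0.53. Kif2c, a kinesin that takes microtubules apart at centromeres, had 62.7, 70.6 and 69.5 CPM with IGF1, 11.5, 14.2 and 13.2 CPM with phenylephrine, and 19.9, 20.8 and 22.7 CPM with vehicle. It stood 3.20-fold above vehicle with IGF1 (log2 1.68, SE 0.07, edgeR adjusted p = 3.9e-10). Ckap2, which stabilises spindle microtubules, had 114, 116 and 110 CPM with IGF1, 36.2, 34.5 and 36.0 CPM with phenylephrine, and 49.4, 49.9 and 54.9 CPM with vehicle. Its SE was the smallest of the 39 genes in both comparisons, at a log2 fold change of 1.14 with IGF1 and -0.53 with phenylephrine (SE 0.05 each, edgeR adjusted p = 3.0e-10 and 5.8e-07). Kif11, the motor that pushes the spindle poles apart, rose 2.24-fold and Kif22, which moves chromosome arms, 2.42-fold. Tpx2, the activator of Aurora A, and Nusap1, a bundler of spindle microtubules, rose 2.44-fold and 2.45-fold.

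The central spindle and cytokinesis genes had the largest median rise of the 7 roles with IGF1, at log2 1.46, with all 5 tested genes higher. With phenylephrine 4 of the 5 were lower (median -0.53), and they spread widely, from -0.75 to -0.12. Kif20a, a kinesin that carries the passenger complex to the midzone, had 183, 204 and 194 CPM with IGF1, 32.9, 33.8 and 32.2 CPM with phenylephrine, and 48.9, 57.3 and 60.1 CPM with vehicle. It rose 3.49-fold with IGF1 (log2 1.804, SE 0.07, edgeR adjusted p = 1.9e-10) and was 1.68-fold lower with phenylephrine (log2 -0.75, SE 0.07, adjusted p = 5.9e-07). Prc1, which bundles the microtubules of the midzone, had 208, 224 and 217 CPM with IGF1, 67.35, 67.6 and 70.9 CPM with phenylephrine, and 66.5, 74.97 and 82.5 CPM with vehicle. Its phenylephrine samples fell inside the range of its vehicle samples (log2 -0.12, SE 0.06, edgeR adjusted p = 0.12), while its IGF1 samples were 2.90-fold higher (log2 1.54, SE 0.06, adjusted p = 3.9e-10). Without vehicle replicate 1, the lowest vehicle sample, Prc1 passed as lower with phenylephrine (log2 -0.21, adjusted p = 0.0058).

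Kif23 and Racgap1, the partners that form centralspindlin, rose 2.76-fold and 2.11-fold with IGF1 and were 1.44-fold and 1.63-fold lower with phenylephrine. Ect2, the exchange factor that turns on RhoA at the furrow, rose 2.74-fold with IGF1 and was 1.16-fold lower with phenylephrine (edgeR adjusted p = 0.022). This small fall of Ect2 did not pass without vehicle replicate 3 (log2 -0.17, adjusted p = 0.086), phenylephrine replicate 1 (-0.21, 0.054) or phenylephrine replicate 2 (-0.14, 0.13).

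**Figure D3:**
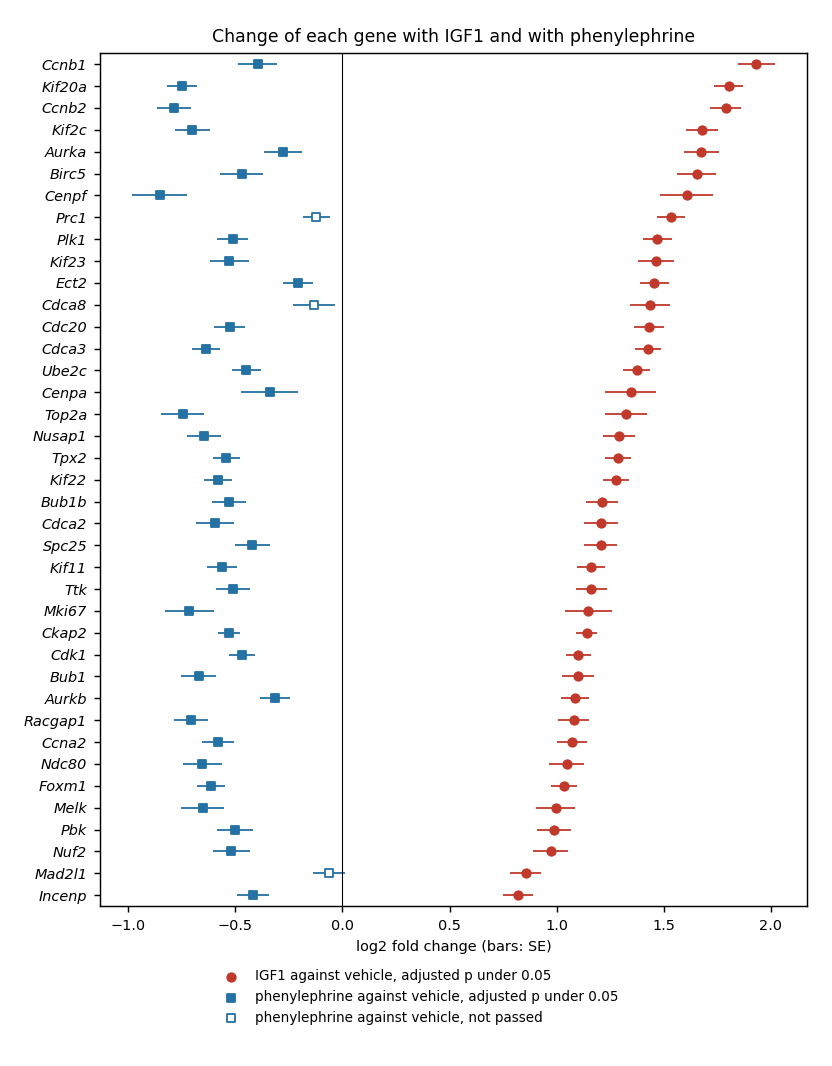
Log2 fold change of each of the 39 genes with IGF1 (circles) and with phenylephrine (squares) against vehicle, ordered by the IGF1 value, with SE as bars. Filled points passed the adjusted p of 0.05. All 39 circles lie above 0.8, and the 3 open squares are Prc1, Cdca8 and Mad2l1.

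Of the 39 genes, 34 were called at least 2-fold higher with IGF1, where 2.29% of all genes tested were. Genes called at least 2-fold higher numbered 272, so that the 34 made up 12.5% of them and 87.2% of the mitosis genes. The remaining rises were those of Melk, Pbk, Nuf2, Mad2l1 and Incenp. By size of rise, Ccnb1, Kif20a, Ccnb2, Kif2c, Aurka, Birc5 and Cenpf led, all at log2 1.61 or more. No mitosis gene was called at least 2-fold lower with phenylephrine, where 4.14% of all genes tested were.

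The stimuli were also compared directly, IGF1 against phenylephrine, which does not use the vehicle levels. All 39 genes were higher with IGF1 than with phenylephrine, with no overlap between samples, where 27.1% of all genes tested were called higher and 29.5% did not overlap in this direction. At least 2-fold higher were 38 of the 39, where 5.33% of all genes tested were. The median log2 fold change was 1.77, or 3.42-fold, and the median over all genes was 0.00. The range ran from 0.92 for Mad2l1 (edgeR adjusted p = 7.3e-08) to 2.58 for Ccnb2 (adjusted p = 3.5e-12). Kif20a, Cenpf, Kif2c and Ccnb1 followed Ccnb2, at 5.87-fold, 5.51-fold, 5.21-fold and 5.02-fold. Since the comparisons of IGF1 and of phenylephrine with vehicle share the vehicle samples, this direct comparison carries the difference between the stimuli.

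With phenylephrine, 36 genes were called lower under TMM, under RLE size factors as another scaling, and in DESeq2. Scaling by library size alone changed this count. When only library size was used to scale, the median over all genes with phenylephrine moved to -0.22 and that of the mitosis genes to -0.72, and all 39 were then called lower, Mad2l1, Cdca8 and Prc1 included. Over all genes, the calls with phenylephrine were then 1751 higher and 5696 lower, against 3310 and 3429 with TMM. The calls with IGF1 against vehicle were 2031 higher and 3614 lower, against 2935 and 2781, and those of IGF1 against phenylephrine 4366 higher and 2132 lower, against 3222 and 3215. Without IGF1 replicate 1, all 39 genes were called higher with IGF1 (median log2 1.31) and 36 lower with phenylephrine.

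Genes around the mitotic core were described by lists, which were also made with earlier results of these data known. Of 51 other tested genes of mitosis, 48 rose with IGF1 and none fell, with a median log2 of 0.97. With phenylephrine 36 fell and 4 rose (median -0.39). Over all genes tested, 23.4% were called lower with IGF1 and 27.9% were called higher with phenylephrine. Pttg1 encodes securin, which keeps sister chromatids from separating before anaphase. It averaged 34.1 ± 1.36 CPM with IGF1, 5.94 ± 0.68 CPM with phenylephrine and 9.78 ± 0.71 CPM with vehicle (SD, n = 3 each). Its log2 fold changes were 1.81 with IGF1 (SE 0.08, edgeR adjusted p = 5.3e-10) and -0.72 with phenylephrine (SE 0.09, adjusted p = 1.3e-05). The centrosome kinase gene Nek2 rose by a log2 of 1.79 with IGF1. The smallest called rises were those of the kinetochore genes Mis12 (log2 0.23, adjusted p = 0.022) and Ska2 (0.34, 0.0012). That of Mis12 ended without vehicle replicate 1 or 2 or IGF1 replicate 2 or 3 (log2 0.18 to 0.22, edgeR adjusted p = 0.069 to 0.12) and with library size alone as the scaling (0.15, 0.197).

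The 4 genes of this list that rose with phenylephrine were Mis12, Zwint, Cenpm and Cit, and the last 3 are named because of these values. Mis12 rose by a log2 of 0.38, a call that ended with library size alone as the scaling (0.19, edgeR adjusted p = 0.097). Zwint, a kinetochore protein also expressed in neurons, averaged 279 ± 19.9 CPM with IGF1, 414 ± 2.37 CPM with phenylephrine and 257 ± 11.4 CPM with vehicle. It was thus higher with phenylephrine than with vehicle (log2 0.69, SE 0.05, edgeR adjusted p = 3.7e-08) and did not pass with IGF1 (log2 0.12, adjusted p = 0.058). Without vehicle replicate 3 or IGF1 replicate 2, the IGF1 value of Zwint passed (log2 0.15 each, adjusted p = 0.047 and 0.038), as it did in DESeq2 (0.13, adjusted p = 0.047). Cenpm, of the inner kinetochore, rose with both stimuli, by 0.97 with IGF1 and 0.85 with phenylephrine. Cit, the citron kinase of the midbody, rose by 0.96 with IGF1 and 0.36 with phenylephrine.

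S phase genes moved less. Of 43 tested, 34 rose with IGF1 and none fell (median log2 0.42), and with phenylephrine 10 fell and 4 rose (median -0.04). The share higher with IGF1 was 79.1%, against 24.7% of all genes tested. With phenylephrine 9.3% were higher and 23.3% lower, against 27.9% and 28.9% of all genes tested. The largest rises with IGF1 were those of Tk1, thymidine kinase, at log2 1.17 (SE 0.06, edgeR adjusted p = 7.5e-10), and Rrm2, a subunit of ribonucleotide reductase, at 1.11 (SE 0.09, adjusted p = 1.0e-06). Both fell with phenylephrine, by 0.44 and 0.52. Pcna, the sliding clamp of DNA polymerase, rose by 0.31 with IGF1 (adjusted p = 0.0003), with 130 ± 4.72 CPM against 105 ± 7.66 CPM with vehicle. The helicase subunit gene Mcm2 rose by 0.16 (adjusted p = 0.015) and the repair glycosylase gene Ung by 0.21 (0.0094). The call of Mcm2 ended without vehicle replicate 1 or 3 or IGF1 replicate 3 (log2 0.12 to 0.14, adjusted p = 0.067 to 0.086), and that of Ung without vehicle replicate 2 or IGF1 replicate 3 (0.17 each, 0.061 each). Both calls also ended with library size alone as the scaling (0.07, adjusted p = 0.33, and 0.13, 0.13).

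Among 19 tested G1 cyclins, E2F and MuvB factors, 9 rose and 2 fell with IGF1, and 5 rose and 5 fell with phenylephrine. With IGF1 this was 47.4% higher and 10.5% lower, against 24.7% and 23.4% of all genes tested. With phenylephrine it was 26.3% each way, near the 27.9% higher and 28.9% lower of all genes tested. E2f1, the activator of S phase genes, rose by a log2 of 0.66 with IGF1 (edgeR adjusted p = 7.2e-05), Ccne1, cyclin E1, by 0.61 (5.1e-06) and Mybl2, the B-Myb partner of MuvB, by 0.53 (3.7e-05). With phenylephrine Ccne1 fell by 0.29 (0.0031), while Mybl2 had a log2 of -0.05 (0.60) and E2f1 one of -0.23 (0.051). The E2f1 value passed without vehicle replicate 1 (log2 -0.31, adjusted p = 0.022), IGF1 replicate 1 (-0.23, 0.0011) or IGF1 replicate 3 (-0.24, 0.011), and in DESeq2 (-0.22, 0.043). Myc, a growth regulator, went the other way: it averaged 9.76 ± 2.29 CPM with IGF1, 44.2 ± 1.99 CPM with phenylephrine and 21.25 ± 1.32 CPM with vehicle. Its log2 fold changes were -1.14 with IGF1 (adjusted p = 1.5e-05) and 1.06 with phenylephrine (1.1e-05).

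The cyclin D1 gene Ccnd1 had a log2 of -0.09 with IGF1 (edgeR adjusted p = 0.43) and rose by 0.30 with phenylephrine (0.012). Without IGF1 replicate 1, Ccnd1 was called lower with IGF1 (log2 -0.22, adjusted p = 1.6e-05), as it was with library size alone as the scaling (-0.18, 0.034). Its rise with phenylephrine did not pass without vehicle replicate 3 (0.26, 0.052) or with that scaling (0.11, 0.15). E2f4, a repressor E2F, fell by 0.14 with IGF1 (0.042), a call that ended without any 1 sample other than vehicle replicate 3 or IGF1 replicate 1 (log2 -0.15 to -0.11, adjusted p = 0.052 to 0.145) and in DESeq2 (-0.13, 0.061).

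Of 18 tested inhibitors of the cell cycle, 5 rose and 5 fell with IGF1, and 6 rose and 9 fell with phenylephrine. With IGF1 this was 27.8% each way, near the 24.7% higher and 23.4% lower of all genes tested. With phenylephrine it was 33.3% higher and 50% lower, against 27.9% and 28.9% of all genes tested. Cdkn2c, the CDK4 and CDK6 inhibitor p18, moved as the mitosis genes did, with a log2 of 1.17 with IGF1 (edgeR adjusted p = 2.2e-08) and -0.57 with phenylephrine (5.7e-05). Cdkn1a, the inhibitor p21, rose with both stimuli, by 0.58 with IGF1 and 0.53 with phenylephrine, and Cdkn1b, the inhibitor p27, fell with both, by 0.49 and 0.59. Ccng1, a p53 target, rose by 0.95 with IGF1 and by 0.30 with phenylephrine. Ccng2 and Rbl2, which are linked to quiescence, fell by 0.72 and 0.68 with IGF1 and by 1.07 and 0.77 with phenylephrine.

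Of 17 constitutive APC/C and checkpoint subunits, 7 rose and 1 fell with IGF1 (median log2 0.12), and 2 rose and 2 fell with phenylephrine (median -0.01). With IGF1 this was 41.2% higher and 5.88% lower, against 24.7% and 23.4% of all genes tested. With phenylephrine it was 11.8% each way, against 27.9% higher and 28.9% lower of all genes tested. The APC/C subunit gene Cdc27 rose by 0.62 with IGF1 (edgeR adjusted p = 4.2e-08) and the chain-extending enzyme gene Ube2s by 0.55 (3.0e-06), Anapc5 rose by 0.13 (0.012) and Anapc2 fell by 0.43 (6.2e-07). The call of Anapc5 ended without vehicle replicate 1 or 2 (0.12 each, adjusted p = 0.062 and 0.066) and with library size alone as the scaling (0.05, 0.246).

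**Figure D4:**
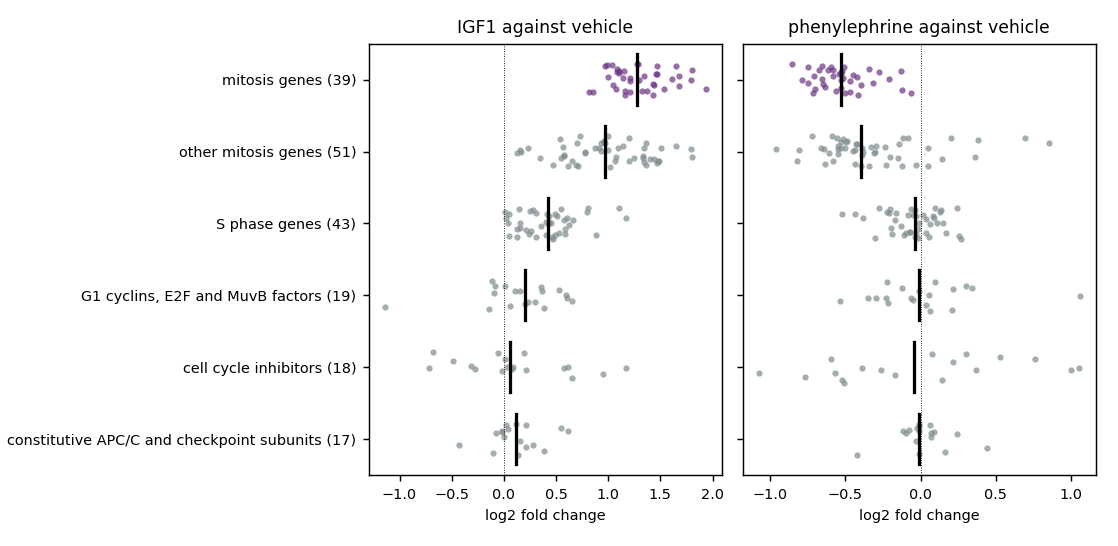
Log2 fold change of each tested gene in the 39 mitosis genes and in 5 lists around them, with IGF1 (left) and with phenylephrine (right) against vehicle; the number of genes is in brackets and bars mark medians. The medians with IGF1 are 1.28 for the mitosis genes, 0.97 for other mitosis genes, 0.42 for S phase genes, and 0.20, 0.05 and 0.12 for the others.

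Markers of cell types that such a culture may hold moved as follows. For reference, 24.7% of all genes tested were called higher and 23.4% lower with IGF1, and 27.9% and 28.9% with phenylephrine. The summed level of 11 fibroblast markers ran from 7216 to 8136 CPM with IGF1, 5707 to 5793 CPM with phenylephrine and 6386 to 7401 CPM with vehicle. With IGF1 4 of 10 tested rose and 1 fell, and with phenylephrine 1 rose and 5 fell. Postn, Lum and Col3a1, matrix genes of fibroblasts, were among those higher with IGF1, at log2 0.73, 0.86 and 0.55, while Pdgfra was lower, at -0.39, and Tcf21 did not pass, at -0.04. Col1a2 lay under 1 CPM in every group. The fibroblast sum was lowest with phenylephrine, and its IGF1 range overlapped the vehicle range. Most of this sum came from Col1a1, Col3a1 and Vim, at 3460, 1438 and 1308 CPM of a mean of 6912 CPM with vehicle. With phenylephrine these genes were lower, at log2 -0.17, -0.43 and -0.42, as were Postn and Pdgfra. Dcn was higher, at 0.24, and Tcf21, Lum, Ddr2 and Thy1 did not pass.

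The 12 cardiomyocyte markers summed to 59390 to 83200 CPM with IGF1, 75930 to 77000 CPM with phenylephrine and 51150 to 55240 CPM with vehicle, with 9 higher and 1 lower with IGF1, and 8 higher and 4 lower with phenylephrine. The 10 endothelial markers summed to 123 to 125 CPM with IGF1, 197 to 212 CPM with phenylephrine and 176 to 197 CPM with vehicle. With IGF1 7 of them were lower and none higher, and with phenylephrine 2 were higher and 1 lower. Smooth muscle and pericyte markers, 9 in all, summed to 1805 to 2368 CPM with IGF1, 2782 to 2847 CPM with phenylephrine and 1944 to 2039 CPM with vehicle, with 1 higher and 2 lower with IGF1, and 4 higher and 3 lower with phenylephrine. The sums of 10 macrophage and leukocyte markers were 73.8 to 80.9 CPM with IGF1, 72.8 to 92.5 CPM with phenylephrine and 79.0 to 90.5 CPM with vehicle, with 1 of 9 lower with IGF1 and 2 with phenylephrine. The 6 epicardial markers summed to 46.0 to 51.2 CPM with IGF1, 66.5 to 68.65 CPM with phenylephrine and 53.5 to 59.7 CPM with vehicle, with 3 lower with IGF1, and 2 higher and 2 lower with phenylephrine. No marker had 0 reads over all samples. Vwf and Emcn among endothelial, Rgs5 among pericyte, and C1qa and C1qb among macrophage markers lay under 1 CPM in every group. The part of the cell mix in the changes of the mitosis genes was not tested.

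**Figure D5:**
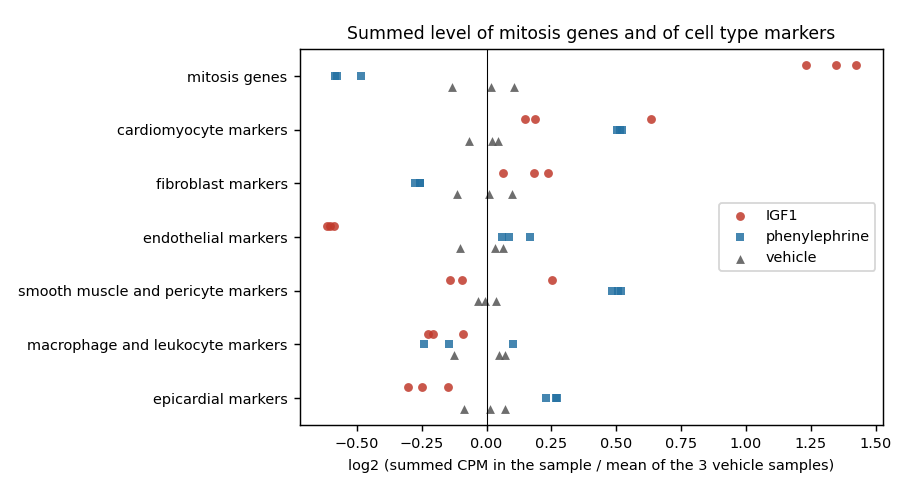
Summed CPM of the 39 mitosis genes and of 6 lists of cell type markers in each sample, as log2 over the mean of the 3 vehicle samples; circles are IGF1, squares phenylephrine and triangles vehicle. The mitosis genes are the only row in which the IGF1 samples exceed 1 on this scale.

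The labels do not state a strand setting for the counts, so how reads of overlapping genes were counted is not known. In the RefSeq annotation of GRCr8, 8 of the 39 genes overlap a gene that has a row of its own: Plk1 (Ern2), Aurka (Fam210b), Cdca3 (Usp5), Spc25 (Nostrin), Cdca2 (Kctd9), Kif11 (Ide), Nusap1 (Ndufaf1) and Kif20a (Cdc23). The other 31 genes include Ccnb1, Cdk1, Mki67 and Top2a. The processing notes name the build rn5, on which these overlaps were not read.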

How the data were processed

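RNA of 9 samples, 3 groups of 3, was sequenced on an Illumina NovaSeq instrument from NuGEN Ovation libraries, per the labels' protocols. The deposited values are raw counts of reads per gene symbol, with no normalization. The build rn5 and the tools STAR, HTSeq and DESeq are named per the submitters' processing notes, without versions, roles or a strand setting. Genes were kept by filterByExpr (minimum count 10, minimum total count 15), scaled by TMM and fitted in edgeR 4.0.16 (R 4.3.3) by robust quasi-likelihood, with group as the only term and all 9 samples, with Benjamini-Hochberg adjustment over 11873 genes. SEs were derived from the F statistic and the log2 fold change. The fit was tested on simulated data. DESeq2 1.42.0, limma-voom (3.58.1), other scalings, filters and thresholds, a block and left-out samples were alternatives.

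Values in every sample were given for the gene with the most reads and that with the largest IGF1 change in each role, and for Mki67, Cdk1, Ccnb1 and Aurkb. Outside this rule, they were also given for Ccnb2, and for Mad2l1 and Cdca8 with phenylephrine and vehicle. From each list around them, the 2 highest and 2 lowest called IGF1 changes and 8 fixed genes were named. The members and lists were chosen with earlier results of these data known.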

Additional observations from a re-analysis of the deposited data

How the results depend on the processing

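The count of 39 mitosis genes called higher with IGF1, against vehicle and against phenylephrine, was the same under DESeq2, limma-voom, every scaling, filter and threshold tried, the fit of the compared groups alone, the replicate block and each left-out sample. The count called lower with phenylephrine, 36 of 39, was 35 in limma-voom, without a filter and with the compared groups alone, each without Cenpa, 33 to 36 with 1 sample left out, 33 at an adjusted p of 0.01, 35 under a replicate block and 39 with scaling by library size only. That scaling moved the median log2 fold change of the mitosis genes to -0.72 for phenylephrine against vehicle and to 1.89 for IGF1 against phenylephrine. It also turned small phenylephrine values of Mcm2 and E2f4 to -0.16 each and that of Ube2s, 0.16 with TMM, to -0.0296. Its factors leave out the composition of the libraries by construction. With a sample left out, the medians were 1.21 to 1.31 for IGF1 against vehicle, -0.60 to -0.51 for phenylephrine against vehicle and 1.73 to 1.84 for IGF1 against phenylephrine. Over 9301 genes, samples that share a replicate number did not deviate together (correlations of -0.23 to 0.08 over 9 pairs), so the numbers were not taken as pairs. Among the mitosis genes, replicate 1 was most often the lowest sample in each group, though the share of all genes with this order was not counted. It was lowest for 36 of 39 genes with IGF1, 35 with vehicle and 19 with phenylephrine, where replicate 2 was lowest for 16. Replicate 3 was highest for 31 genes with vehicle and 25 with phenylephrine, but for only 6 with IGF1. The block ended the call of Cenpa with phenylephrine (adjusted p = 0.057).

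Sequencing depth limited the members little, since the lowest count was 95 reads. Each group had 3 samples, whose independence the labels do not state, and cultures were read as a whole.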
